A study of Mus musculus with 6 samples.

Results

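Immunoglobulin and plasma cell genes were followed in whole lung of 6 mice at day 14 after bleomycin, an antitumour agent that breaks DNA and damages the lung, had been given through the trachea. Members were taken by symbol: variable segments of the heavy, kappa and lambda loci, heavy and light constant genes, and *Jchain*, *Mzb1* and *Xbp1*. This gave 9 of the 26100 rows of the count table. They were the heavy segments *Ighv6-4* and *Ighv6-5*, the kappa segments *Igkv4-54*, *Igkv4-62* and *Igkv4-71*, the lambda constant gene *Iglc2*, and the 3 named genes. All 6 mice received bleomycin, 3 of them wild type (WT) and 3 knocked out for *Clec7a* (KO), the gene of the myeloid beta-glucan receptor dectin-1. The sources used here give no strain, sex, age or kind of knockout allele. Lungs without bleomycin are not analysed here. The comparison therefore asks how these transcripts differed between genotypes within injured lungs.

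An antibody is made of heavy and light chains, each with a variable part, encoded by a segment joined from many in the genome, and a constant part that sets the class of the heavy chain or the kappa or lambda type of the light chain. When a B cell becomes a plasma cell, the factor encoded by *Xbp1* enlarges the secretory pathway, *Mzb1* encodes a chaperone-associated protein of the endoplasmic reticulum, and *Jchain* encodes the small protein that joins IgM and IgA units into polymers and lets them be carried across epithelia. In the lung, plasma cells lie around airways and vessels and supply IgA to the airway surface. *Xbp1* is used far more widely, also by secretory epithelium, and *Mzb1* is also read in B cells and plasmacytoid dendritic cells. Because bulk tissue was sequenced, fewer cells of a type and less RNA per cell cannot be told apart.

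Libraries held 31052936 to 34451956 counts. *Clec7a* itself had 1974, 2732 and 6734 counts in the WT libraries and 114, 230 and 92 in the KO libraries, so the groups did not overlap at the targeted gene (log2 fold change -4.68 ± 0.61, edgeR adjusted p 0.203, DESeq2 adjusted p 1.52e-14). The targeted gene itself thus missed the edgeR threshold, and a missed threshold below is read against that. In both genotypes replicate 1 differed from replicates 2 and 3. The marks that touch the genes below were secretory airway genes in WT replicate 1 alone and red cell genes in both of these libraries. The 12 airway markers summed to 12370 CPM (counts scaled to library size with TMM factors) in WT replicate 1 and to 321.0 to 4604 CPM in the other libraries. KO replicate 1, at 2553 CPM, lay between KO replicates 2 (1886) and 3 (4604). The 8 red cell markers summed to 4703 and 8032 CPM in WT and KO replicate 1 and to 550.1 to 1661 CPM in the other 4.

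The immunoglobulin loci were represented by few rows. GENCODE M21, which uses the build GRCm38 named in the submitters' processing notes, annotates 432 immunoglobulin genes and segments, and 6 of them had a row. These 6 were all 6 whose annotation includes a transcript typed as protein coding, and 0 of the 426 without such a transcript had a row. Among 218 functional variable genes 5 had a row, and among 13 constant genes 1 had a row. Of 270 T cell receptor genes and segments 1 had a row. No symbol matched a heavy constant gene, *Igkc* or a lambda variable segment, so isotype shares and the balance of kappa and lambda are not analysed here. A further 4064 rows are unnamed models without coordinates, which were not assigned to any locus.

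The 3 kappa segments belong to 1 family of close copies on the minus strand of chromosome 6 (GRCm38), the chromosome that also carries *Clec7a* (129461591 to 129472779). *Igkv4-71* lies at 69243158 to 69243688, *Igkv4-62* at 69399810 to 69400344 and *Igkv4-54* at 69631646 to 69632178. Their mature coding sequences are shown because the likeness of the copies limits what a count per segment can mean. They are taken from the GENCODE M21 transcripts, run 5′ to 3′ over 288 bases, and have in capitals the 26 positions at which the 3 copies are not all alike.
Igkv4-54: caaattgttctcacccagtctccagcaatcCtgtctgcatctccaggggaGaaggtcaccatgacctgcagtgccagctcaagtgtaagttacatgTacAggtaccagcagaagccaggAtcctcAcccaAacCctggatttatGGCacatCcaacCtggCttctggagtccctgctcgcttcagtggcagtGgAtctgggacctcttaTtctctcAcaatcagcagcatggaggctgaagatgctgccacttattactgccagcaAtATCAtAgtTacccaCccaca
Igkv4-62: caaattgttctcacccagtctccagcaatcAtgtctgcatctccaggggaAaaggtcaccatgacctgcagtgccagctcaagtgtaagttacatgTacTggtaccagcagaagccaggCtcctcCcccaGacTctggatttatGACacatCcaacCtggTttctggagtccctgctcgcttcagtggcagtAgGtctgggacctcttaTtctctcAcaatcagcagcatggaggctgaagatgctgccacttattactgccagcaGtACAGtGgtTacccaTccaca
Igkv4-71: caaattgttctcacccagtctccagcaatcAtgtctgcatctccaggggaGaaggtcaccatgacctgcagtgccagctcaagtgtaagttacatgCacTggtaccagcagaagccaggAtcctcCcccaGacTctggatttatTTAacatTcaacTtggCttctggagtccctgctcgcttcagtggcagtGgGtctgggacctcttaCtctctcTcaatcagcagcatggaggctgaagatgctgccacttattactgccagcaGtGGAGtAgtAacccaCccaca
The 5′ end, which codes for the start of the mature chain, is nearly free of capitals, and the capitals stand closest together in the middle and near the 3′ end. *Igkv4-54* and *Igkv4-62* were 94.1% identical (17 differences), *Igkv4-54* and *Igkv4-71* 93.1% (20), and *Igkv4-62* and *Igkv4-71* 94.1% (17). The heavy segments *Ighv6-4* (chromosome 12, 114406474 to 114406961, minus strand) and *Ighv6-5* (114416596 to 114417053) were 86.2% identical over 297 bases.

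*Iglc2*, on chromosome 16 from 19198396 to 19200351 (minus strand), has a close copy as well. *Iglc3* (19065230 to 19065681), another lambda constant gene, was not among the rows. Over 315 coding bases that end with the stop codon they were 96.5% identical. The first 300 are shown, and the capitals mark the 11 differences, all of which lie within them.
Iglc2: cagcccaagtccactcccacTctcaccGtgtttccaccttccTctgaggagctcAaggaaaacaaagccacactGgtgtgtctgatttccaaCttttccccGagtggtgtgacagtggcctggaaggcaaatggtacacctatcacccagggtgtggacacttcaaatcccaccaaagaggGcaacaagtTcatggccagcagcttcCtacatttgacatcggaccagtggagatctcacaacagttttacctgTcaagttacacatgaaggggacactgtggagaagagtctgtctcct
Iglc3: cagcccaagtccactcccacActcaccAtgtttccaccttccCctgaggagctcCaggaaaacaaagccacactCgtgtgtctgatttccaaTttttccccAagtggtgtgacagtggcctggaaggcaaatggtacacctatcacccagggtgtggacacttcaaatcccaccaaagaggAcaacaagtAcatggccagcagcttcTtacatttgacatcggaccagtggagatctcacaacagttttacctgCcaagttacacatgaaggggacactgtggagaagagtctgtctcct
Between the differences lie stretches that are alike in both genes, so a short read can match both genes in some places. Of all windows of 50 bases in the annotated transcripts of *Iglc2*, 7.65% also occurred exactly in *Iglc3*. For *Igkv4-54*, *Igkv4-62* and *Igkv4-71* the share of windows found in other genes was 47.9%, 35.7% and 42.6%, spread over 18, 19 and 22 other kappa segments. It was 0% for *Ighv6-4* and 8.12% for *Ighv6-5*. Among the other genes, *Xbp1* shared 0% and *Jchain* 0.288% of its windows. *Mzb1* shared 53.5%, all with a longer model named SPATA24 that lies over it on the same strand and had no row. The sources used here do not say how the counting treated reads that match several genes, so the counts of the kappa segments, *Iglc2* and *Mzb1* are uncertain to that extent.

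**Figure D1:**
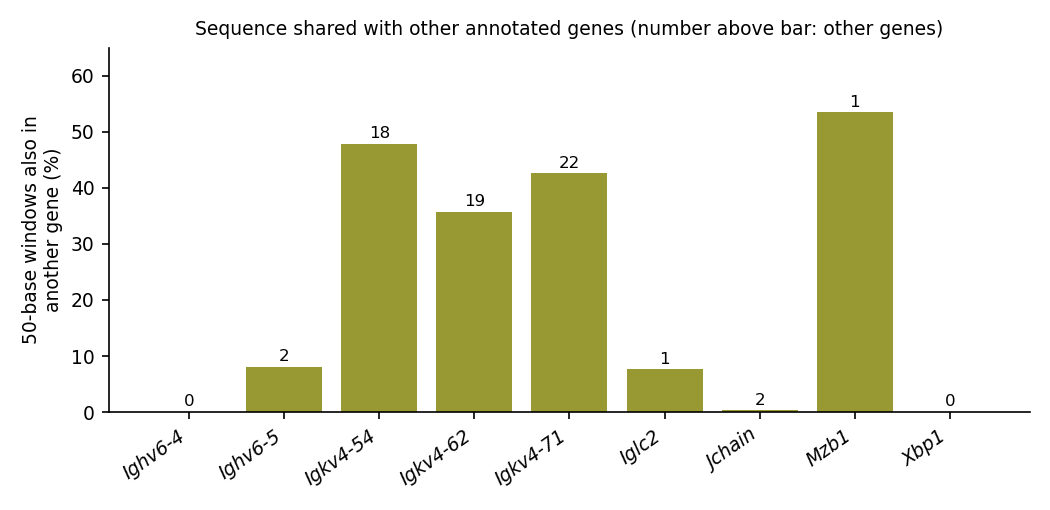
Bars give, for each of the 9 genes, the percentage of 50-base windows of its annotated transcripts that occur exactly in another GENCODE M21 gene on either strand, and the number above a bar is the count of such genes. The 3 kappa segments and *Mzb1* stand at 35.7% to 53.5%, and the other genes at 8.12% or lower.

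Variable segments were barely read. The 5 segments together had 34 counts in the 6 libraries, 0.17 CPM on pooled totals without TMM, with 24 in WT and 10 in KO. By library the sum was 1, 18 and 5 counts in WT replicates 1 to 3 and 4, 3 and 3 counts in KO replicates 1 to 3. WT replicate 2 thus held most of the WT counts, and the groups overlapped. *Igkv4-62* had 0, 11 and 1 counts in WT and 1, 1 and 1 in KO, and *Igkv4-54* had 0, 7 and 3 in WT and 3, 0 and 0 in KO. *Ighv6-4* had 1, 0 and 1 counts in WT and 0, 2 and 2 in KO. *Ighv6-5* and *Igkv4-71* had 0 counts in all 6 libraries, which allows a level of up to 0.0876 to 0.0948 CPM in a library (3 counts, counting error only).

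The number of segments with a count was 1, 2 and 3 in the WT libraries and 2, 2 and 2 in the KO libraries. The means differed by 0. A spread index was not computed, since 1 library had a single count. None of the 5 segments passed the filter on low counts, so none was tested. At this level the count column was not proportional to FPKM (fragments scaled to transcript length and library size): the 1 count of *Ighv6-4* stood beside 0.0439 FPKM in WT replicate 1 and 0.0146 FPKM in WT replicate 3.

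The remaining 4 genes were well read and had no detectable difference between the genotypes. *Jchain* (chromosome 5, 88519809 to 88527891, minus strand, protein coding) was at 105.8, 45.2 and 90.1 CPM in WT replicates 1 to 3 and at 55.2, 102.7 and 37.5 CPM in KO replicates 1 to 3. High and low lungs occurred in both genotypes, with the highest library 2.82-fold above the lowest. WT lungs averaged 80.4 ± 31.4 CPM, and KO lungs averaged 65.1 ± 33.7 CPM (SD over 3 libraries). The log2 fold change, KO minus WT throughout, was -0.30 ± 0.46 (SE), with a 95% interval of -1.40 to 0.79, that is from 0.378 to 1.73 times the WT level (edgeR quasi-likelihood test, unadjusted p 0.53, Benjamini-Hochberg adjusted p 0.841). It was -0.79 without KO replicate 2, -0.59 without WT replicate 2, -0.06 without WT replicate 1, -0.02 without KO replicate 3 and 0.059 without both first replicates.

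*Iglc2* was at 2.64, 4.30 and 2.86 CPM in WT and at 4.74, 2.95 and 1.39 CPM in KO. Here KO replicate 1 and WT replicate 2 were highest, a different order from that of *Jchain*, and the groups again overlapped. The log2 fold change was -0.11 ± 0.50 with an interval of -1.31 to 1.09 (edgeR adjusted p 0.955), on 45 to 150 counts in a library. It was 0.24 without KO replicate 3, 0.14 without WT replicate 2, -0.59 without KO replicate 1 and -0.72 without both first replicates.

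*Mzb1* (chromosome 18, 35647267 to 35649367, minus strand) was at 3.78, 2.86 and 3.44 CPM in WT and at 3.28, 3.90 and 2.19 CPM in KO. The lowest and the highest library were both KO. Its log2 fold change was -0.10 ± 0.34 with an interval of -0.92 to 0.71 (edgeR adjusted p 0.936), and 0.099 without KO replicate 3. *Xbp1* (chromosome 11, 5520659 to 5525893, plus strand) was at 272.4, 207.9 and 214.7 CPM in WT and at 216.3, 233.1 and 232.5 CPM in KO. It was the steadiest of the 4, with the highest library 1.31-fold above the lowest, and that highest library was WT replicate 1, the one with the highest secretory airway genes. The part of the airway genes in that value was not tested. The log2 fold change of *Xbp1* was -0.03 ± 0.19, with an interval of -0.48 to 0.43 (edgeR adjusted p 0.973), and 0.10 without WT replicate 1 or 0.008 without KO replicate 1.

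**Figure D2:**
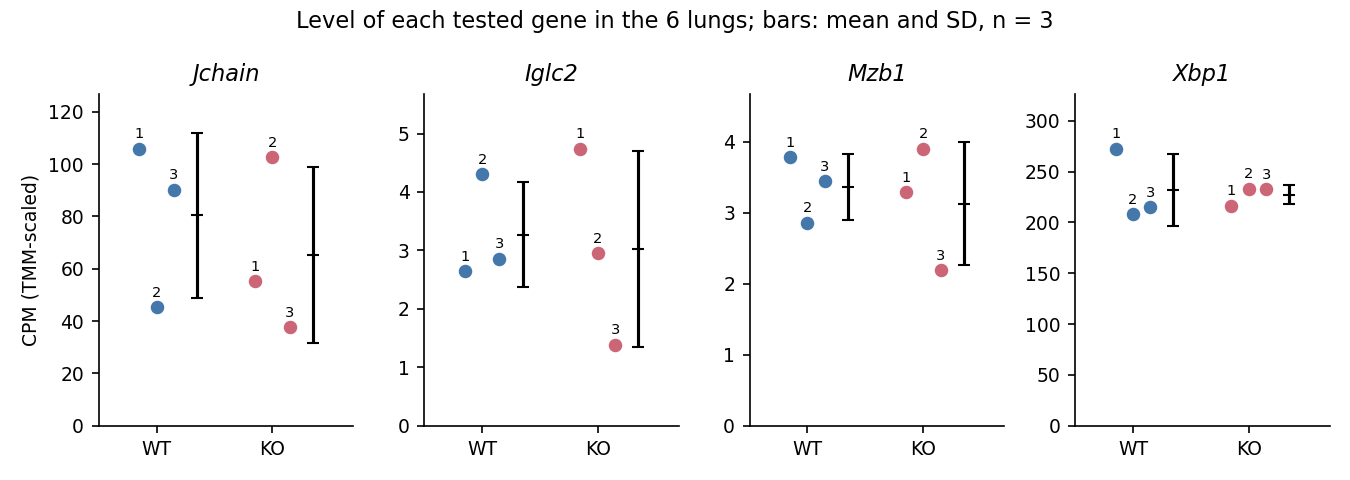
Points give the CPM (linear axis from 0) of *Jchain*, *Iglc2*, *Mzb1* and *Xbp1* in each library, WT in blue and KO in red, numbered by replicate, and bars give the mean and SD of 3 libraries. The groups overlap in all 4 panels, and *Jchain* and *Mzb1* put the libraries in nearly the same order.

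Of these 4 genes 0 passed an edgeR adjusted p of 0.05, as did 0% of the 16633 genes tested. At an unadjusted p under 0.05 edgeR had 0 of the 4, against 11.8% of all genes, and DESeq2 called 0 of the 4, against 3.64%. The groups were separated for 0 of the 4, against 21.1% of all genes. With 4 genes such shares do not set these members apart from the background. The intervals still allow a *Jchain* level in KO as low as 0.378 times that in WT or 1.73 times as high, and an *Xbp1* level between 0.716 and 1.34 times.

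Per length, *Xbp1* was the highest of the members, at 104.4 ± 10.7 FPKM in WT and 108.5 ± 6.05 FPKM in KO (SD over 3 columns). *Jchain* followed at 53.9 ± 19.9 and 46.0 ± 24.5 FPKM. *Iglc2* had 5.08 ± 1.52 and 4.86 ± 2.62 FPKM and *Mzb1* 3.46 ± 0.40 and 3.37 ± 0.96 FPKM. *Iglc2* was above *Mzb1* in each WT library, while the KO values of the 2 genes overlapped. The largest value of a variable segment was 1.06 FPKM, for *Igkv4-62* in WT replicate 2.

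Lungs with more *Jchain* also had more *Mzb1*. Over the 6 libraries Pearson's r of their log2 CPM was 0.918 (exact permutation p 0.00556, adjusted 0.0333 over the 6 pairs of the 4 genes) and Spearman's rho was 0.943 (exact permutation p 0.0167). Without the 2 libraries farthest from the median of *Jchain*, WT replicate 2 and KO replicate 3, r was 0.869. The other 5 pairs had r between -0.435 and 0.504 and exact permutation p of 0.297 or more. Without WT replicate 2 and KO replicate 3, r of *Iglc2* went from 0.14 to -0.975 with *Jchain* and from 0.504 to -0.739 with *Mzb1*. With 3 libraries per genotype the relation could not be tested within a genotype. Both values come from the same library and share its depth and makeup. Among all tested genes outside the members, those most like *Iglc2* in log2 CPM over the 6 libraries were *Fbxo30* (r = 0.97), *Bfsp1* (0.97) and *Kazald1* (0.97). Those most like *Jchain* were *Kcnab1* (0.97), *Fbxl6* (0.97) and *Alox15* (0.97). With 6 libraries and 16633 genes such values are a description only.

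The wider plasma cell programme was split evenly. Of 26 listed genes 24 were tested, with 12 estimates above and 12 below 0 and a median log2 fold change of -0.02, against -0.01 and 49% above 0 over all genes. edgeR called 0 of them after adjustment. At an unadjusted p under 0.05 it had 1 higher (5.95% of all genes) and 2 lower (5.89%), and DESeq2 called 2 (3.64%). The groups were separated for 2 genes with KO above WT (9.81% of all genes) and for 3 with KO below WT (11.3%). *Fkbp11*, a folding enzyme of the secretory pathway, was at 11.0, 9.28 and 7.30 CPM in WT and at 4.14, 2.98 and 4.29 CPM in KO, with no overlap (log2 fold change -1.27 ± 0.29, edgeR adjusted p 0.234, DESeq2 adjusted p 0.00645). *Slamf7*, a surface receptor of plasma cells that NK cells and some myeloid cells also carry, was at 2.83, 4.70 and 11.2 CPM in WT and at 30.5, 29.7 and 16.9 CPM in KO (2.04 ± 0.55, edgeR adjusted p 0.269, DESeq2 adjusted p 0.00918). These 2, which DESeq2 called, thus had estimates in opposite directions.

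*Sdc1*, the plasma cell surface proteoglycan CD138, which epithelia also make, was at 383.8, 199.0 and 170.9 CPM in WT and at 219.7, 140.8 and 237.2 CPM in KO (-0.33 ± 0.37), and at 0.11 on the log2 scale without WT replicate 1. The disulfide isomerase gene *Txndc5* was at 251.8, 346.4 and 339.3 CPM in WT and at 186.7, 248.9 and 225.8 CPM in KO (-0.50 ± 0.22, edgeR adjusted p 0.44). The defining survival receptor of plasma cells, BCMA (*Tnfrsf17*), had only 8, 8 and 5 counts in WT and 4, 8 and 6 in KO and did not pass the filter. Among the factors that direct plasma cell formation, *Prdm1* was at 0.70 ± 0.43 and *Irf4* at 0.65 ± 0.49 in log2 fold change (edgeR adjusted p 0.577 and 0.651), and both groups overlapped. These 2 were chosen for their role after their values were seen.

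**Figure D3:**
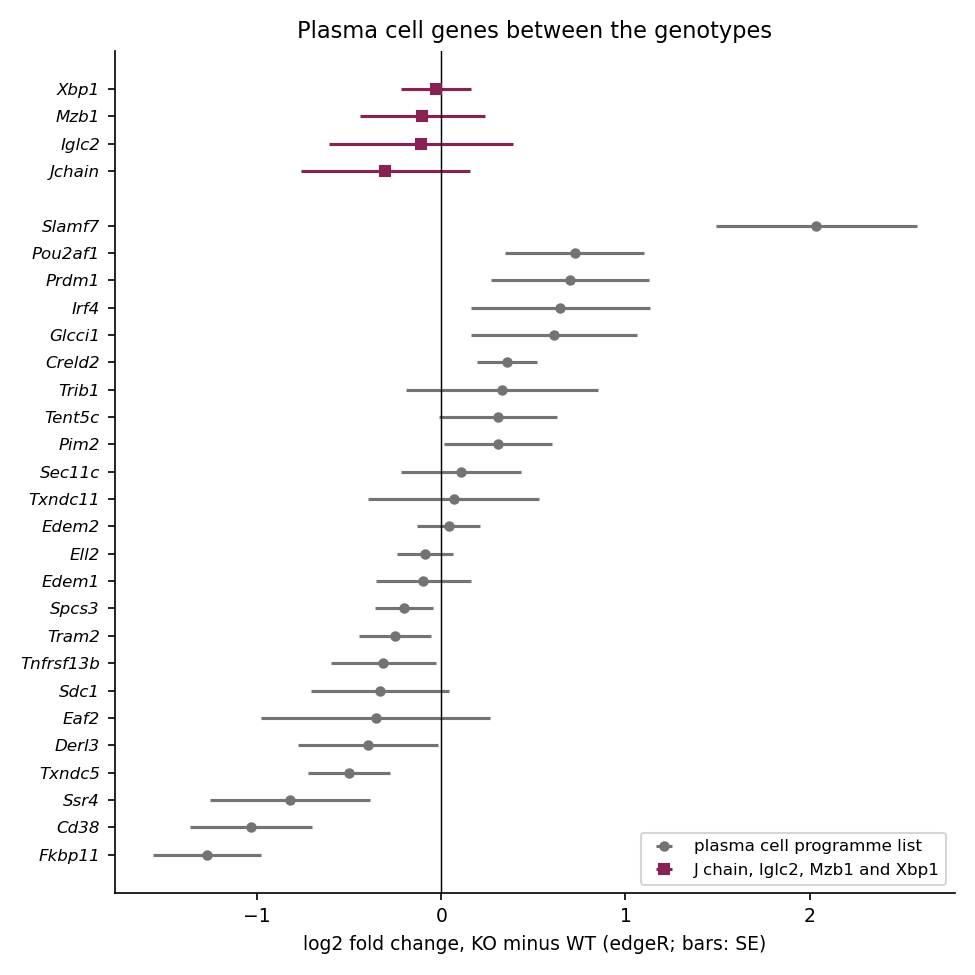
Squares give the edgeR log2 fold change (KO minus WT) of the 4 tested members and circles that of the 24 tested genes of the plasma cell programme, with SE as bars. The squares lie between -0.30 and -0.03, and the circles fall on both sides of 0, from *Fkbp11* (-1.27) to *Slamf7* (2.04).

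Genes that fold and export antibody, which the factor made from *Xbp1* and its partner ATF6 are known to drive, had no call. Of 16 tested genes 12 had estimates above 0 (49% of all genes), with a median of 0.20. edgeR called 0 after adjustment. At an unadjusted p under 0.05 it had 0 higher (5.95% of all genes) and 1 lower (5.89%), and DESeq2 called 0 (3.64%). The groups were separated for 3 genes with KO above WT, *Hsp90b1*, *Pdia6* and *Sdf2l1* (9.81% of all genes). They were separated for 1 with KO below WT, *P4hb* (11.3%). The chaperone gene *Hspa5* was at 530.8, 827.8 and 860.5 CPM in WT and at 670.8, 1987 and 1569 CPM in KO, with overlap (0.93 ± 0.45, edgeR adjusted p 0.474). *P4hb*, a disulfide isomerase that also serves collagen folding, was at 967.8, 1079 and 993.3 CPM in WT and at 603.5, 748.7 and 717.8 CPM in KO, with no overlap (-0.55 ± 0.22, edgeR adjusted p 0.407). *Sdf2l1* had a log2 fold change of 0.57 ± 0.24 (edgeR adjusted p 0.429).

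The element through which these factors act could be read in promoters from RefSeq (GRCm38.p6, 250 bases before to 50 after each start). The letters searched were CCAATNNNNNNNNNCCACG on both strands. They occurred in 0.119% of 32851 promoters, in those of 6 of the 13 folding genes with an entry and of 2 of the 22 plasma cell programme genes with one. Of the 8 matches 4 are shown, to set the searched letters (capitals) beside the 9 free ones, read 5′ to 3′ on the strand that matches.
Hspa5: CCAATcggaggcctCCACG
Hsp90b1: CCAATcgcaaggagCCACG
Derl3: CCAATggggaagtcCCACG
Creld2: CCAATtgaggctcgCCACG
Neither *Jchain* nor *Xbp1* has these letters in its window, and neither has the octamer ATGCAAAT on either strand, which 1.74% of promoters hold. *Mzb1* and *Iglc2* have no entry in the promoter table. Of the 8 genes, *Hspa5* had 0.93 ± 0.45, *Hsp90b1* 0.52 ± 0.25, *Creld2* 0.36 ± 0.16 and *Derl3* -0.40 ± 0.38 in log2 fold change (edgeR adjusted p 0.474, 0.474, 0.461 and 0.732). The others had smaller estimates: *Pdia6* 0.30 ± 0.17, *Dnajc3* 0.23 ± 0.18, *Canx* 0.17 ± 0.20 and *Calr* 0.12 ± 0.21 (edgeR adjusted p 0.539, 0.652, 0.79 and 0.861).

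Signals that keep and attract antibody-secreting cells were also followed. Of 15 tested genes 10 had estimates above 0, with a median of 0.71 (0.44 without WT replicate 1 and 0.31 without both first replicates). edgeR called 0 after adjustment, with 3 higher and 1 lower at an unadjusted p under 0.05, and DESeq2 called 2 (over all genes 49% above 0, 5.95% higher, 5.89% lower and 3.64% by DESeq2). *Tnfsf13b*, which encodes the survival cytokine BAFF, was at 16.03, 17.83 and 18.5 CPM in WT and at 36.1, 27.9 and 34.8 CPM in KO. All KO lungs lay above all WT lungs, as for 9.81% of all genes (0.91 ± 0.18, edgeR adjusted p 0.216, DESeq2 adjusted p 0.0055). The other gene called by DESeq2, *Cxcl13*, had its estimate in the opposite direction. This chemokine gene, which draws B cells into follicles, was at 209.9, 61.6 and 47.2 CPM in WT and at 7.61, 29.1 and 25.4 CPM in KO (-2.36 ± 0.74, edgeR adjusted p 0.311, DESeq2 adjusted p 0.0187). All KO lungs lay below all WT lungs for *Cxcl13*, as for 11.3% of all genes. *Ccr10*, the homing receptor of IgA-secreting cells, was low in all libraries but also separated, at 0.307, 0.215 and 0.204 CPM in WT and 0.600, 0.714 and 0.709 CPM in KO (1.46 ± 0.43, edgeR adjusted p 0.292). *Kitl*, the stem cell factor gene, had 0.71 ± 0.31 (edgeR adjusted p 0.44), and the stromal chemokine gene *Cxcl12* was at 219.9 to 627.3 CPM in WT and at 226.2 to 631.9 CPM in KO (-0.01 ± 0.51).

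Receptors and carriers of antibody had estimates on both sides of 0. Of 15 tested genes 8 were above and 7 below 0, with a median of 0.15 (-0.10 without KO replicate 1 and -0.05 without both first replicates). edgeR called 0 after adjustment and had 2 higher and 1 lower at an unadjusted p under 0.05, and DESeq2 called 1. Over all genes the shares were 49% above 0, 5.95% higher, 5.89% lower and 3.64% by DESeq2. The low-affinity IgE receptor gene *Fcer2a*, a B cell gene, was at 1.35, 2.98 and 5.08 CPM in WT and at 10.6, 9.47 and 8.70 CPM in KO (1.61 ± 0.48, edgeR adjusted p 0.296, DESeq2 adjusted p 0.0326). *Trim21*, the cytosolic antibody receptor gene, had 0.88 ± 0.26 (edgeR adjusted p 0.295). The IgG receptor genes *Fcgr3* and *Fcgr2b* had -0.81 ± 0.27 and -0.61 ± 0.36 (edgeR adjusted p 0.344 and 0.556).

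Genes of switching and the germinal centre were mostly low. Of 16 listed genes 11 were tested, 9 with estimates above 0 (49% of all genes) and a median of 0.21. edgeR called 0 after adjustment. At an unadjusted p under 0.05 it had 1 higher (5.95% of all genes) and 0 lower (5.89%), and DESeq2 called 1 (3.64%). That gene was *Gcsam*, a germinal centre adaptor gene, at 0.123, 0.461 and 1.02 CPM in WT and at 3.44, 3.39 and 2.96 CPM in KO (2.60 ± 0.70, edgeR adjusted p 0.269, DESeq2 adjusted p 0.00652). *Ung*, which removes uracil left by the switching enzyme, had -0.54 ± 0.30, *S1pr2* 0.21 ± 0.18 and *Tgfb1*, an IgA switch factor, -0.25 ± 0.33. Of 7 genes of recombination and the surrogate light chain 2 were tested, *Vpreb3* (0.68 ± 0.73) and *Dntt* (0.43 ± 0.64).

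B cell markers were on 1 side. All 16 had estimates above 0, with a median of 1.08 (15 above 0 and a median of 0.89 without WT replicate 1, 16 and 0.91 without both first replicates). edgeR called 0 after adjustment, with 10 higher and 0 lower at an unadjusted p under 0.05, and DESeq2 called 6. Over all genes the shares were 49% above 0, 5.95% higher, 5.89% lower and 3.64% by DESeq2. *Spib*, a B cell and plasmacytoid dendritic cell factor, was at 1.87, 2.98 and 3.36 CPM in WT and at 7.55, 10.5 and 8.17 CPM in KO (1.67 ± 0.33, edgeR adjusted p 0.216, DESeq2 adjusted p 2.91e-04), *Cr2* had 2.19 ± 0.57, *Cd22* 0.70 ± 0.48 and *Btla* 0.66 ± 0.30.

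To set the plasma cell signal against the B cell signal within a lung, *Jchain* counts were divided by the counts of 2 B cell markers, a step chosen after the values were seen. Per count of the antigen receptor component *Cd79a*, *Jchain* had 23.8, 6.63 and 10.7 counts in WT and 6.19, 6.47 and 3.27 in KO. Per count of *Ms4a1*, which encodes CD20, it had 40.5, 11.5 and 14.4 in WT and 3.10, 7.91 and 5.56 in KO. Every KO lung lay below every WT lung in both ratios, with a narrow gap for *Cd79a*. Ratios to the other B cell markers were not computed, and the separation does not hold for all of them. KO replicate 1 had more *Jchain* than WT replicate 2 (55.2 against 45.2 CPM) and slightly less *Pax5* (6.98 against 7.01 CPM). With *Pax5* as the denominator the groups would therefore overlap. Both denominators were themselves separated, with all KO lungs above all WT lungs. *Cd79a* was at 4.45 to 8.40 CPM in WT and 8.91 to 15.9 CPM in KO. *Ms4a1* was at 2.61 to 6.25 CPM in WT and 6.75 to 17.8 CPM in KO. Of single genes, 11.3% had all KO lungs below all WT lungs, but for ratios over such markers that share is no background. The mean log2 ratios to *Cd79a* and *Ms4a1* differed by -1.23 and -1.87. The exact 2-sided permutation p was 0.1 for each, the smallest that 3 against 3 allows, and 0.2 after adjustment over 4 ratios. Both ratios share *Jchain* and are not independent. WT replicate 1 was the highest in each. Without it the differences were -0.73 and -1.32, and the exact 2-sided permutation p was 0.2 for each, the smallest that 2 against 3 allows. Groups that are separated cannot come to overlap when a library is left out. The other 2 ratios, *Iglc2* and *Mzb1* per *Jchain* count, overlapped between the genotypes (exact 2-sided permutation p 0.8 for both).

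**Figure D4:**
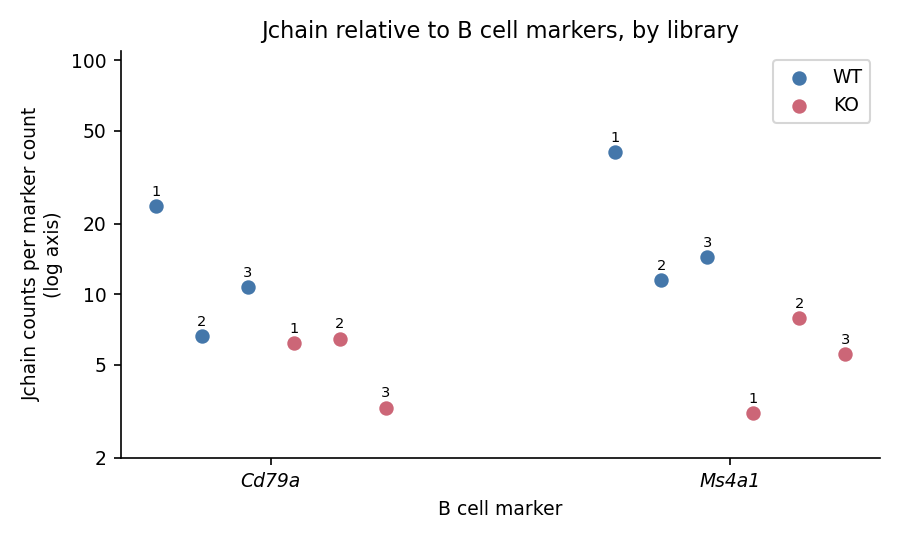
Points give *Jchain* counts per count of *Cd79a* or *Ms4a1* in each library (log axis), WT in blue and KO in red, numbered by replicate. The KO points lie below the WT points for both markers shown, which does not hold for all B cell markers. WT replicate 1 is the highest in each.

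Markers of other cells that could carry these transcripts were read beside them. Plasmacytoid dendritic cell markers had 6 of 10 tested estimates above 0, with a median of 0.27 and summed levels of 257.2 to 513.9 CPM in WT and 409.7 to 523.9 CPM in KO. *Tcf4* (-0.04 ± 0.46), *Irf8* (0.41 ± 0.23) and *Bst2* (0.89 ± 0.34), which other cells also use, were the most abundant. The defining marker *Siglech* was at 0.491, 1.11 and 2.74 CPM in WT and at 3.54, 4.46 and 5.37 CPM in KO. Secretory airway markers had 4 of 12 above 0, with a median of -0.36 that turned to 2.65 without WT replicate 1. *Scgb1a1* (-0.73 ± 1.26), *Ltf* (-1.88 ± 1.29) and *Cyp2f2* (1.56 ± 0.95) were its named members. Lymph node and thymus markers had 6 of 6 tested estimates above 0, with a median of 0.78 and summed levels of 58.6 to 81.0 CPM in WT and 80.6 to 109.9 CPM in KO. The T cell genes *Cd8b1* (1.62 ± 0.47) and *Themis* (1.31 ± 0.39) had the smallest p there, *Ccr7* had 1.10 ± 0.46, the lymphatic chemokine gene *Ccl21a* had 0.14 ± 0.17, and the thymic marker *Ptcra* was at 0 counts in all libraries. Red cell markers had 8 of 8 above 0, with a median of 0.68 that turned to -0.45 without KO replicate 1 (*Hbb-bs* 0.80 ± 1.11, *Hbb-bt* 1.00 ± 1.18 and *Slc4a1* 0.86 ± 0.49). edgeR called 0 genes of these 4 lists after adjustment, with 5 at an unadjusted p under 0.05, and DESeq2 called *Spib* and *Cd8b1*. Of all genes tested 49% had estimates above 0, 11.8% had an unadjusted p under 0.05 in edgeR, and DESeq2 called 3.64%. The part of these cells in the levels of the members was not tested.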

How the data were processed

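Whole lung RNA of 6 mice was extracted with TRIzol and made into libraries with an NEBNext Ultra kit, per the labels' protocols. The authors deposited whole-number counts per gene without normalization, and FPKM values for the same genes in a second table. Its KO columns have an extra suffix in their names and were therefore used as a group, without replicate numbers. The submitters' processing notes list HISAT2 2.0.4, StringTie 1.3.4d and GRCm38 and give no roles. The sources used here give no strand, counting or multi-mapping settings. Count columns were matched by group and replicate number.

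Counts were tested with edgeR 4.0.16 (R 4.3.3, filterByExpr, TMM, robust quasi-likelihood fit, genotype as only term, 2-sided) over 16633 genes, of which 4 were members, with Benjamini-Hochberg adjustment and a threshold of 0.05. SE was taken as |log2 fold change| divided by the root of the F statistic. DESeq2 1.42.0, limma 3.58.1 (voom, and log2(FPKM + 1) or log2(FPKM + 0.1)), other scalings and filters, the replicate block and leaving out libraries were alternatives. The functions were checked on simulated counts. Each library is from its own mouse, per the series' design text.

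The members, the naming rule and 11 gene lists were chosen with earlier results of these data known. The rule named all constant genes, *Jchain*, *Mzb1*, *Xbp1*, the 5 most abundant variable segments, and in each list the 2 tested genes of smallest p and the 2 of highest level, and the 3 tested genes most like the constant gene. The genes most like *Jchain*, *Siglech*, *Hsp90b1*, *Creld2*, *Derl3*, *Pdia6*, *Dnajc3*, *Canx*, *Calr*, *Cxcl13*, *Prdm1*, *Irf4*, *Tnfrsf17* and the ratio markers was added after values were seen. The planned isotype shares and evenness of segments could not be computed from these rows. *Pax5*, *Ebf1*, *Tnfrsf13c* and *Ralgps2* were also added after values were seen. Some genes of the lists are counted but not reported by name here.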

Additional observations from a re-analysis of the deposited data

How the results depend on the processing

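Of the 4 tested members 0 were called under every alternative run. The number of genes called over the whole table was 0 with edgeR and 678 with DESeq2, 3 with limma on log2(FPKM + 0.1), 46 without both first replicates (chosen after seeing the data), and 0 to 3 with each library left out. The cause was not tested. Direction was not fixed for the members. *Jchain* was at 0.059 without both first replicates. *Xbp1* was at 0.026 with total counts only, 0.059 on all 3 FPKM scales and 0.15 without both first replicates. With each library left out, *Iglc2* ranged from -0.59 to 0.24, *Mzb1* from -0.29 to 0.099, *Xbp1* from -0.10 to 0.10 and *Jchain* from -0.79 to -0.024.

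Of the 44 genes named by rule, 32 kept their sign in every alternative. Reversed values were 0.0405 (*Sdc1*), -0.097 (*Dntt*), 1.49 (*Ltf*) and 2.13 (*Scgb1a1*) without both first replicates, 0.047 (*Cxcl12*) and 0.011 (*Tcf4*) with total counts, 0.058 (*Tcf4*) and 0.66 (*Scgb1a1*) with limma-voom, 0.088 to 0.098 (*Tcf4*) and 0.72 (*Scgb1a1*) on FPKM scales. With each library left out *Sdc1* ranged from -0.55 to 0.11, *Cxcl12* from -0.34 to 0.31, *Tcf4* from -0.40 to 0.22, *Ltf* from -2.42 to 1.10, *Scgb1a1* from -1.28 to 2.06, *Hbb-bs* from -0.82 to 2.21 and *Hbb-bt* from -0.83 to 2.53.

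With the replicate number as a block edgeR called 0 members and 0 genes, *Jchain* was at -0.37 and *Iglc2* at -0.25, and *Tcf4* (0.057), *Ltf* (0.022) and *Scgb1a1* (0.58) turned sign. Deviations from the group means correlated at 0.351, 0.35 and -0.0988 for same-numbered libraries. WT replicate 1 correlated best with KO replicate 1, and WT replicates 2 and 3 both correlated best with KO replicate 2 (0.35 and 0.468). With 3 libraries per genotype these values cannot decide whether the numbers pair the libraries. The difference in segments with a count stayed within -0.5 to 0.5. The variable segments, *Tnfrsf17*, *Vpreb1*, *Igll1*, *Rag1* and *Rag2* had too few counts to test, and the reason was not tested. Alternatives for isotype shares were not run, since no row matched a heavy constant gene. The *Jchain* to B cell marker ratios, also chosen after seeing the data, ranged from -1.65 to -0.73 (*Cd79a*) and -2.23 to -1.32 (*Ms4a1*) with each library left out.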

Other observations

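Of 7 genes of recombination and the surrogate light chain, *Vpreb1*, *Rag1* and *Rag2* had a few counts in KO lungs and 0 in WT lungs. The other members did not: *Vpreb3* (0.671 to 3.96 CPM in WT, 1.93 to 4.41 in KO) and *Dntt* (0.276 to 0.467 CPM in WT, 0.154 to 0.695 in KO) were read in every library. *Vpreb2* had 0 counts in all libraries. *Vpreb1*, a surrogate light chain gene of B cell precursors, had 12, 4 and 4 counts in KO replicates 1 to 3 and 0 in all 3 WT libraries. The recombinase genes *Rag1* (4, 0 and 6) and *Rag2* (3, 0 and 2) had 0 counts in the 3 WT libraries as well. *Igll1*, the partner of *Vpreb1*, had 3, 2 and 0 counts in KO and 14, 2 and 3 in WT. *Igll1* overlapped between the groups. *Vpreb1*, *Rag1*, *Rag2* and *Igll1* did not pass the filter on low counts, and they were picked out after their values were seen. The share of all low-count genes with counts in KO lungs alone was not computed. *Il21* had 7, 0 and 8 counts in KO and 0, 2 and 0 in WT. *Cd40lg*, the T cell ligand needed for switching, had 12, 25 and 6 in KO and 4, 3 and 4 in WT. Both also failed the filter and were picked out after their values were seen. The other untested switching genes were *Rgs13* (3, 3 and 0 in KO, 4, 3 and 4 in WT), *Il5* (0, 8 and 6 in KO, 0, 5 and 4 in WT) and *Il4* (0, 5 and 0 in KO, 0 in each WT library).

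*Cxcr5*, the receptor gene for the follicle chemokine, was at 0.522, 0.861 and 2.16 CPM in WT and at 4.55, 3.51 and 1.63 CPM in KO (1.45 ± 0.65, edgeR adjusted p 0.454), with overlap. *Cd38*, an ectoenzyme of plasma cells, B cells and macrophages, was at 57.0, 124.9 and 122.7 CPM in WT and at 41.0, 57.1 and 50.8 CPM in KO (-1.03 ± 0.33, edgeR adjusted p 0.319). These genes were also picked out after their values were seen.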
